A study of Mus musculus with 21 samples.

Results

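The effect of carrying a MerCreMer transgene on the heart, apart from tamoxifen toxicity, was measured by pooling 9 MerCreMer left ventricle samples and setting them against 9 wild-type samples. These 18 arrays were taken from a series of 21. The 3 MerCreMer samples given 4 tamoxifen injections were left out of this comparison. The 9 MerCreMer samples came from Tg(αMHC-MerCreMer) mice and formed 3 groups of 3: a control injection on 1 day, tamoxifen at 40 mg/kg on 1 day, and control injections on 4 consecutive days. The 9 wild-type samples came from mice given control injections on 4 days (6 samples) or 40 mg/kg tamoxifen on each of 4 days (3 samples). All injections were intraperitoneal, all mice were aged 9 to 13 weeks, and hearts were collected 4 days after injections ended. By sex, the MerCreMer samples were 3 male and 6 female, and the wild-type samples 4 male and 5 female. The labels name neither a strain, a litter, a transgenic line nor an insertion site for either genotype, so the transgene itself and any difference in genetic background cannot be told apart. The samples are labelled as replicates, but nothing states outright that each came from its own animal, so the p-values measure the spread between these samples, which may be in part technical.

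MerCreMer is a Cre recombinase fused at each end to a mutated ligand-binding domain of the mouse oestrogen receptor. The α-myosin heavy chain promoter drives it in cardiomyocytes, and the fusion protein is held outside the nucleus by heat shock proteins until tamoxifen binds it. Mice that carry only this transgene are the usual control for inducible gene deletion in the adult heart, which is why a difference between them and wild-type mice matters for such studies. As background, the insertion in a widely used line of this transgene has been placed at A1cf, an RNA editing cofactor of liver and gut.

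Values are log2 expression values made by RMA (robust multi-array average). A gene was tested if it reached a log2 value of 5 on at least 3 of the 18 arrays, which left 11306 genes. A gene is called where its limma p-value, adjusted by Benjamini-Hochberg over all genes tested, is under 0.05. Changes are given as MerCreMer minus wild type on the log2 scale, from a model with genotype, tamoxifen and sex. The array medians lay between 4.57 and 4.72. Pairs of arrays correlated at 0.9833 to 0.9933 within MerCreMer, at 0.9824 to 0.995 within wild type and at 0.9788 to 0.9908 between genotypes. Xist and the Y-linked genes Uty, Eif2s3y and Kdm5d matched the labelled sex on all 18 arrays. All 15 cardiomyocyte markers tested were present, with a mean level of 12.1 to 12.18 on every array.

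The MerCreMer arrays fell into 2 sets by their value on 1 probe set, and how far this touches the results below is not known. On 1 probe set that the annotation does not name, 6 MerCreMer arrays read 11.49 to 11.52, and the other 3 MerCreMer arrays read 11.26 to 11.29, within the 11.23 to 11.36 of the 9 wild-type arrays. Each MerCreMer group gave 1 array to the lower set and 2 to the higher. The sexes were not spread evenly. In the lower set the 1 control and 4 control arrays, both replicate 1, were male, and 1 tamoxifen replicate 2 was female. In the higher set only 1 tamoxifen replicate 1 was male. These sets are called the lower and the higher array level below. No label explains the split, and its part in the results was not tested beyond 2 recalculations chosen after the values had been seen. The first added the level as a covariate. The second used the lower-level arrays alone, 3 MerCreMer against 9 wild type. All higher-level arrays were MerCreMer, so the covariate overlaps in part with genotype, and the second recalculation holds fewer arrays.

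MerCreMer ventricles differed from wild type in many genes, and nearly all of the differences were small. Of 11306 genes, 2551 were called (22.6%), with 1627 higher (14.4%) and 924 lower (8.17%) in MerCreMer. The counts of every list below are to be read beside these shares. The median size of a called change was 0.20, and 2195 of the called genes changed by under 0.3. Called changes of at least 2-fold numbered 3: Esr1, the 5S ribosomal RNA gene n-R5s136 and the small nucleolar RNA Snord33, which was singled out after its values were seen. In 214 genes (1.89%) the 9 MerCreMer arrays did not overlap with the 9 wild-type arrays, 176 of them higher (1.56%) and 38 lower (0.336%). The excess of higher genes depended on scaling. When the values were quantile normalised a second time 1288 genes were higher and 1191 lower, so the share of higher genes among those called went from 63.8% to 52%. With the array level as a covariate 512 genes were called (4.53%), 351 higher (3.1%) and 161 lower (1.42%). With the lower-level arrays alone 328 were called (2.9%), 226 higher (2%) and 102 lower (0.902%).

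Esr1, which encodes oestrogen receptor α, had the largest difference of all. It read 7.39 at the lowest, 7.68 at the median and 7.75 at the highest of the 9 MerCreMer arrays, against 5.47, 5.85 and 6.80 in wild type. The groups did not overlap, and the change was 1.64 (SE 0.109, adjusted p = 9.83e-08), a 3.12-fold difference. The transgene holds a part of the Esr1 coding sequence, and where the array's Esr1 probes lie within the gene is not given in the sources used here, so the endogenous gene and the transgene cannot be told apart. Among wild-type arrays the 3 tamoxifen arrays read 6.80, 6.50 and 6.12, above the control range of 5.47 to 6.08. In MerCreMer, 1 tamoxifen injection gave 7.68 to 7.72 and control injections 7.39 to 7.75. The difference between these tamoxifen responses was -0.66 (SE 0.205) and was not called (adjusted p = 0.751). With the lower-level arrays alone the Esr1 change was 1.73 (adjusted p = 0.00127).

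**Figure D1:**
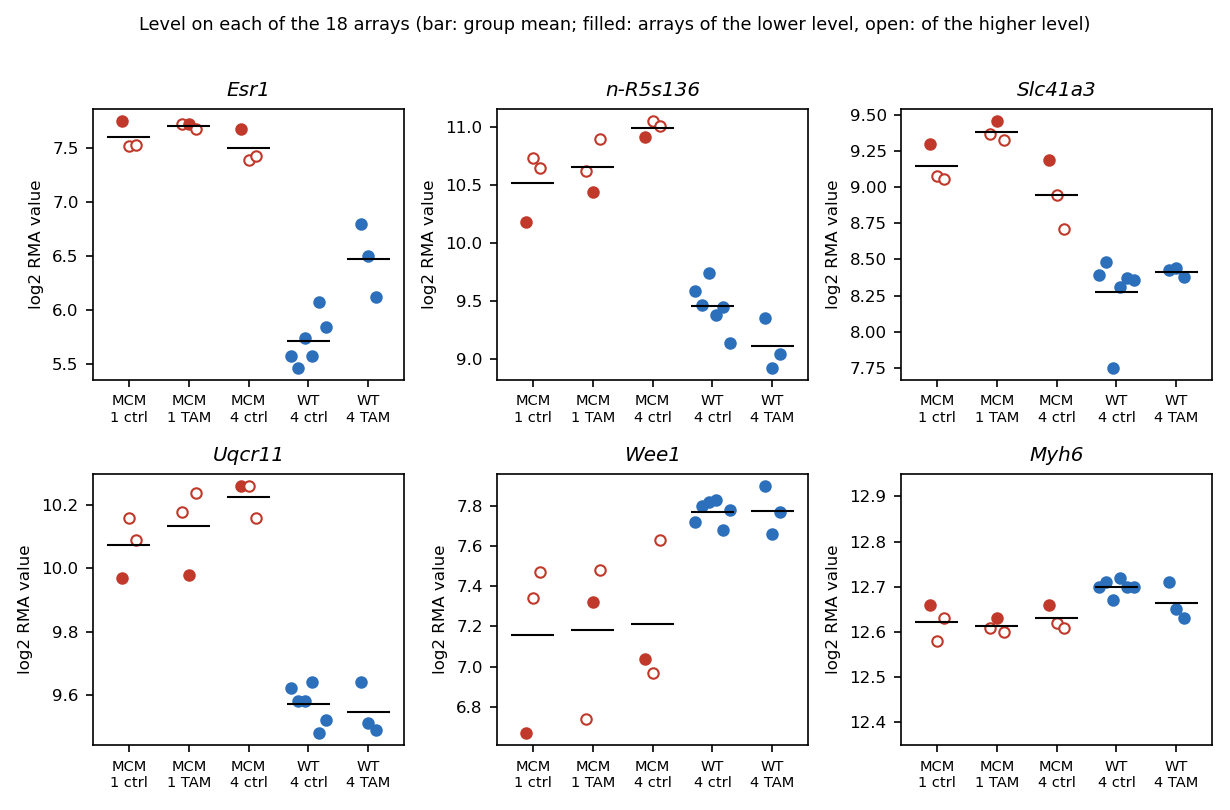
Log2 RMA value of 6 genes on each of the 18 arrays, by group (MCM: MerCreMer, WT: wild type, 1 or 4 injection days, ctrl: control injection, TAM: tamoxifen), with bars at the group means; filled points are arrays of the lower level and open points arrays of the higher level. Esr1, n-R5s136, Slc41a3 and Uqcr11 lie higher on every MerCreMer array than on any wild-type array, Wee1 lies lower, and Myh6 differs by -0.06.

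Other genes tied to the transgene differed little. Of 10 tested genes of oestrogen receptors, oestrogen-related receptors, their coregulators and the promoter's own gene, 2 were higher and 0 lower, with a median change of 0.01 beside 0.0176 over all genes. The second was Esrra, the oestrogen-related receptor α that drives mitochondrial genes, at 0.22 (SE 0.046, adjusted p = 0.00312) and 0.14 in the lower-level arrays (adjusted p = 0.217). Myh6, the α-myosin heavy chain whose promoter drives the transgene, read 12.58 to 12.66 in MerCreMer and 12.63 to 12.72 in wild type. Its change of -0.06 (SE 0.0262, adjusted p = 0.0953) did not pass the test.

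A1cf itself stayed below the level of testing in both genotypes. It read 2.63 to 3.73 in MerCreMer and 2.17 to 2.69 in wild type, far under 5, so no change is given. Of 8 tested genes that lie around A1cf, 2 were higher and 2 lower, with a median of 0.01, beside 22.6% called over all genes. Prkg1, a cGMP-dependent protein kinase, was higher by 0.35 (SE 0.0649, adjusted p = 0.00117) and by 0.34 in the lower-level arrays (adjusted p = 0.0322). Asah2, a neutral ceramidase, was higher by 0.17 (adjusted p = 0.0271), while Atad1, an ATPase that clears misplaced membrane proteins, was lower at -0.15 (adjusted p = 0.0135). Mbl2, a mannose-binding lectin made in liver, lay close to the testing level at 4.47 to 4.96 against 4.76 to 5.14. It reached that level on wild-type arrays only. The Asah2 call ended on leaving out any of 4 single arrays (highest adjusted p 0.0703) and the Mbl2 call on leaving out any of 11 (highest adjusted p 0.0964).

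Along the chromosomes, by the gene order of the RefSeq table (GRCm38.p6), the longest run of tested neighbours called in 1 direction held 5 genes on chr1, Cnppd1, Retreg2, Zfand2b, Abcb6 and Atg9a, all higher. Runs of 4 higher genes lay on chromosomes X, 8, 5 and 2 as well. Of all called genes, 25.1% lay next to a gene called in the same direction, and 39.6% of all genes lay next to any called gene. Whether called genes cluster was not tested. Genes known to differ between common laboratory strains were also examined. Of 15 tested, 1 was higher and 0 lower (median 0.03). The called member was Btbd9, a BTB-domain gene beside Glo1 in a segment duplicated in some strains, at 0.22 (SE 0.0606, adjusted p = 0.0147). Glo1 itself, a detoxifying glyoxalase, ranged from 8.81 to 9.92 in MerCreMer and from 8.75 to 9.72 in wild type, with a change of 0.24 (SE 0.173, adjusted p = 0.332). Both genes varied within each genotype. After 4 control injections the MerCreMer arrays read 9.72, 8.95 and 8.81 for Glo1 and 7.17, 6.85 and 6.94 for Btbd9. The wild-type control arrays ranged from 8.75 to 9.72 and from 6.57 to 7.05. Nnt, the mitochondrial transhydrogenase that C57BL/6J mice lack in functional form, was at -0.09 (adjusted p = 0.221).

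Small structured RNAs had the highest share of higher genes among the lists with 10 or more tested members. The list was chosen by RefSeq class after the values had been seen, and 26 of its 70 genes reached the level of testing. Of these 26, 21 were higher, 0 lower and 5 not called, with a median of 0.39 beside 0.0176 over all genes. They comprised 12 of 16 small nucleolar RNAs, 3 of 3 RNase P RNA genes, 2 of 2 Y RNAs, 1 of 2 guide RNAs of Cajal bodies, and the RNase MRP, 5S ribosomal and 7SK RNAs. n-R5s136 read 10.18, 10.73 and 11.05 (lowest, median and highest) in MerCreMer against 8.93, 9.38 and 9.74 in wild type, a change of 1.38 (SE 0.112, adjusted p = 8.47e-07). Rmrp, the RNA of RNase MRP, which trims ribosomal RNA precursors, read 9.11, 9.51 and 9.69 against 8.28, 8.63 and 8.91, a change of 0.87 (SE 0.0815, adjusted p = 5.82e-06). Neither gene overlapped between genotypes, nor did Rpph1, the RNA of RNase P, at 0.64 (SE 0.0775). Among small nucleolar RNAs, which guide chemical modification of ribosomal RNA, Snord104 was higher by 0.94 (SE 0.106), Snord49b by 0.62 (SE 0.083) and Snord57 by 0.61 (SE 0.0785), all with no overlap. Snord33 was higher by 1.01 (SE 0.147) and the Y RNA Rny1 by 0.94 (SE 0.166), each with some overlap. Rny1 reached the level of testing on MerCreMer arrays only.

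The rise in small RNAs was present on arrays of both levels. Relative to the wild-type mean, the median small RNA lay 0.28 to 0.65 higher on the 3 lower-level MerCreMer arrays and 0.22 to 0.61 higher on the 6 higher-level ones, against -0.12 to 0.12 on wild-type arrays. In the lower-level arrays alone, 8 were called, all higher, with a median of 0.33. Leaving out single arrays gave 19 to 22 higher. The calls of Snora16a and Snora73a ended on leaving out any of 8 and any of 13 arrays (highest adjusted p 0.0773 and 0.0903). AY036118, a non-coding transcript annotated within the ribosomal repeat, was higher by 0.63 (SE 0.0883, adjusted p = 0.00015). Of the histone H4 genes, whose proteins package DNA, H4c6 was higher by 0.61 (SE 0.123) without overlap and H4c4 by 0.65 (SE 0.0863) with overlap. Of 22 histone genes tested 8 were higher and 2, H1f10 and H1f7, lower.

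**Figure D2:**
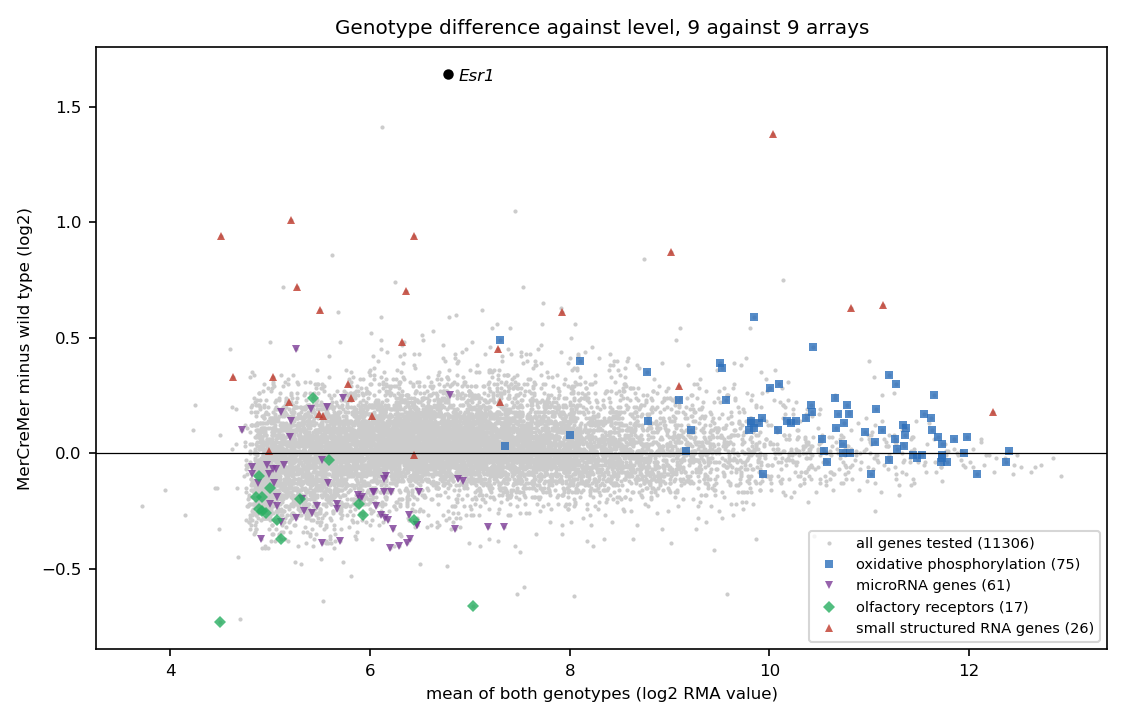
Genotype difference (MerCreMer minus wild type, log2) of every gene tested against its mean log2 RMA level, with 4 lists marked and Esr1 named. Small structured RNA genes lie mostly above 0 at all levels, respiratory chain genes lie slightly above 0 at high levels, and microRNA genes and olfactory receptors lie mostly below 0 at levels close to 5.

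MicroRNA genes differed the other way, though less firmly. Of 61 tested 28 were lower, 2 higher and 31 not called, with a median of -0.19. A probe set for such a gene reads the hairpin or its precursor and does not measure the mature microRNA. Their levels were low, with a mean over the list of 5.51 to 5.91 on every array. In the lower-level arrays alone 2 were lower and 1 higher, with a median of -0.09, and across those 3 MerCreMer arrays the median member lay at -0.11 to -0.09 against -0.38 to -0.13 on the 6 higher-level arrays and -0.14 to 0.14 in wild type. Between 20 (without wild-type control replicate 6) and 34 were lower on leaving out single arrays. Olfactory receptors, which are hardly used in heart muscle, showed a like pattern at a like level: of 17 tested 10 were lower and 0 higher (median -0.24), with 1 lower in the lower-level arrays alone (median -0.16). Between 6 (without wild-type control replicate 6) and 12 olfactory receptors were lower on leaving out single arrays. Both lists are dim on this array: 17 of 1027 olfactory receptors and 61 of 297 microRNA genes reached the level of testing. A dim gene can reach it through 1 genotype alone, which favours a call in that direction. Olfr1148 did so, reading 3.48 to 4.65 in MerCreMer and 4.47 to 5.12 in wild type. The part of low level and of the filter in the result was not tested. The median GC content of the hairpins, for the genes with a RefSeq entry, was 59.1% over 22 of the 28 lower genes and 59.8% over 23 of the 31 that were not called.

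The called microRNA genes included 2 pairs with a shared seed (bases 2 to 8, in capitals), the part of the molecule that pairs with a target. Mir25 and Mir92b lie on different chromosomes, whereas Mir181c and Mir181d are neighbours on chr8. They are shown with Mir185, the lower microRNA gene without overlap, and Mir15a, which was higher. Sequences are mature forms from RefSeq on GRCm38.p6, written 5′ to 3′.
miR-25-3p: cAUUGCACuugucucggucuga
miR-92b-3p: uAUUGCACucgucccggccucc
miR-181c-5p: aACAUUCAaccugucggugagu
miR-181d-5p: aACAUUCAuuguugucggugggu
miR-185-3p: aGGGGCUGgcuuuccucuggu
miR-15a-5p: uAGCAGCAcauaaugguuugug

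Mir185 read 5.21, 5.53 and 5.68 (lowest, median, highest) in MerCreMer against 5.70, 5.89 and 6.05 in wild type, a change of -0.38 (SE 0.0608, adjusted p = 0.000405) that was -0.43 in the lower-level arrays (adjusted p = 0.0297). Mir92b was lower at -0.37 (SE 0.0618, adjusted p = 0.000599) and Mir25 at -0.23 (SE 0.076, adjusted p = 0.0374). Mir181d was lower at -0.33 (SE 0.0733, adjusted p = 0.00418) and Mir181c at -0.20 (SE 0.0654, adjusted p = 0.0345). The calls of Mir25 and Mir181c each ended on leaving out any of 10 arrays (highest adjusted p 0.0767 and 0.0747). Mir15a read 5.23 to 5.83 in MerCreMer and 4.74 to 5.30 in wild type, a change of 0.45 (SE 0.0858, adjusted p = 0.00172) and 0.56 in the lower-level arrays (adjusted p = 0.0274). These pairs were picked out after the values were seen.

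Called genes of the respiratory chain were nearly all higher, by small amounts. The chain passes electrons from NADH and succinate to oxygen and drives ATP synthase, the main source of energy of the beating heart. Of 75 tested 39 were higher, 2 lower and 34 not called, with a median of 0.10. By complex, 18 of 35 complex I genes were higher and Ndufs1 lower, 2 of 4 in complex II, 5 of 9 in complex III and 7 of 11 in complex IV were higher, and in ATP synthase 7 of 15 were higher and Atp5c1 lower. Uqcr11, a small subunit of complex III, read 9.97, 10.16 and 10.26 in MerCreMer against 9.48, 9.58 and 9.64 in wild type. Its change of 0.59 (SE 0.0459, adjusted p = 7.52e-07) was without overlap and was 0.49 in the lower-level arrays (adjusted p = 0.0046). Ndufa1, a small membrane subunit of complex I, was higher by 0.46 (SE 0.0453) and Atp5g2, a subunit of the ATP synthase ring, by 0.34 (SE 0.0327), both without overlap.

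The median respiratory chain gene lay 0.05 to 0.09 above the wild-type mean on the lower-level MerCreMer arrays and 0.10 to 0.14 above it on the higher-level ones, while wild-type arrays ranged from -0.04 to 0.03. In the lower-level arrays alone 6 of the 75 were called, all higher, and with values quantile normalised again the list held 35 higher and 2 lower genes. The tricarboxylic acid cycle, which feeds electrons to the chain, did not follow: of 21 genes tested 0 were called (0 to 2 higher and 0 to 1 lower with 1 array left out), with a median of 0.00.

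Ribosomal protein genes that were called were mostly higher. Of 57 cytosolic ribosomal protein genes 22 were higher and 2 lower (median 0.08), with Rps29, a small-subunit protein, at 0.40 (SE 0.0401, adjusted p = 8.19e-06). Of 77 mitochondrial ones 25 were higher and 6 lower (median 0.07), with Mrpl23 at 0.30 (SE 0.0341). The lower-level arrays alone gave 3 higher and 1 lower cytosolic genes and 4 higher and 1 lower mitochondrial ones. Both lists were added after the values had been seen. Atox1, the cytosolic copper chaperone, was also among the higher genes without overlap. It read 8.18 to 8.46 against 7.57 to 7.91, a change of 0.56 (SE 0.0464, adjusted p = 8.71e-07).

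Gene length moved with the direction of change over all genes. With the genes split into 4 equal sets by genomic span, in the shortest set (median 4.69 kb) 23.9% were higher and 10.7% lower, and in the longest set (median 103 kb) 7.41% were higher and 7.37% lower. Quantile normalised again, 19.8% of the shortest genes were higher and 10.2% lower, while 5.42% of the longest were higher and 12.2% lower. Among the lower-level arrays the shortest set held 109 higher and 20 lower genes and the longest set 27 of each. The part of gene length in the differences of the lists above was not tested. The direction also moved with level: of 4 equal sets by mean level, the dimmest (3.72 to 5.81) had 13.2% of its genes lower and 6.54% higher, against 10.3% and 18.1% in the brightest. Quantile normalised again, the dimmest set had 10.3% lower and 8.31% higher and the brightest 15% and 14.9%.

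Among fuel genes, called fatty acid genes were mostly higher and called glycolysis genes mostly lower, beside 63.8% higher among all called genes. Of 37 fatty acid oxidation genes and PPARA targets 10 were higher and 1 lower (median 0.05). With 1 array left out 7 to 11 were higher, and in the lower-level arrays alone 3 were higher and 0 lower. Acads, which oxidises short-chain acyl groups, was higher by 0.35 (SE 0.0409, adjusted p = 3.43e-05) with no overlap. Plin5, a coat protein of lipid droplets, was higher by 0.50 (SE 0.085), Mlycd, which removes the inhibitor malonyl-CoA, by 0.45 (SE 0.0917), and Angptl4, a secreted inhibitor of lipoprotein lipase, by 0.86 (SE 0.187, adjusted p = 0.00374). Ppargc1a, a coactivator of mitochondrial genes, was the lower member, at -0.19. Ucp3, a mitochondrial carrier, was at 0.72 (adjusted p = 0.0463), a call that ended on leaving out any of 11 arrays (highest adjusted p 0.0881).

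Of 22 glycolysis and glucose uptake genes 5 were lower and 1 higher (median -0.03). With 1 array left out 4 to 5 were lower, and in the lower-level arrays alone 1 was lower and 0 higher. Hk1, a hexokinase, which takes the first step of glucose use, read 10.80, 10.96 and 11.11 in MerCreMer against 11.11, 11.19 and 11.27 in wild type, a change of -0.25 (SE 0.0411, adjusted p = 0.000514) and -0.33 in the lower-level arrays (adjusted p = 0.0091). Hk2, the other muscle hexokinase, was lower at -0.18 (SE 0.0313, adjusted p = 0.000802) and Pygm, the muscle glycogen phosphorylase, at -0.12 (SE 0.0271, adjusted p = 0.00561). Pfkm, the muscle phosphofructokinase, and Pgk1, a phosphoglycerate kinase, were at -0.13 and -0.10, and Ldhb, a lactate dehydrogenase subunit, was the higher one at 0.12. Ppp1r3a, which directs protein phosphatase to glycogen, also stood among the lower genes, reading 8.70 to 8.98 against 9.03 to 9.62, with a change of -0.39 (SE 0.068, adjusted p = 0.000922). Without wild-type control replicate 3, whose value was the highest, it was -0.34 (adjusted p = 0.000177).

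Slc41a3, a transporter of the magnesium carrier family, was, after Esr1, the protein-coding gene with the largest rise among those without overlap. It read 8.71, 9.19 and 9.46 in MerCreMer against 7.75, 8.38 and 8.48 in wild type. Its change of 0.84 (SE 0.0881, adjusted p = 1.02e-05) was 1.01 in the lower-level arrays (adjusted p = 0.0024) and 0.78 without wild-type control replicate 3, the array at 7.75. Tspan18, an endothelial tetraspanin, was higher by 0.59 (SE 0.0718) and Insig1, the sterol sensor that restrains cholesterol synthesis, by 0.54 (SE 0.0719), both without overlap. Of 26 genes of cholesterol and lipid synthesis 4 were higher (2 to 5 with 1 array left out) and 1 lower (0 to 2), with a median of 0.05.

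Wee1, a kinase that holds cells before mitosis and is under control of the circadian clock, was the gene with the largest fall among those without overlap. It read 6.67, 7.32 and 7.63 in MerCreMer and 7.66, 7.78 and 7.90 in wild type, a change of -0.61 (SE 0.1, adjusted p = 0.000515) and -0.76 in the lower-level arrays (adjusted p = 0.00487). The spread was wider in MerCreMer (SD 0.343) than in wild type (SD 0.0764). Of the 15 lower genes of largest change without overlap, the others had changes from -0.41 to -0.22. They included Batf, a transcription factor of immune cells, at -0.41 (SE 0.0486), As3mt, an arsenic methyltransferase, at -0.38 (SE 0.045), Ptpn3, a protein tyrosine phosphatase, at -0.31 (SE 0.0532), and Fgf8, a fibroblast growth factor, at -0.30 (SE 0.0611). Batf lay close to the testing level, at 4.59 to 4.84 against 4.98 to 5.28, and reached it on wild-type arrays only.

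**Figure D3:**
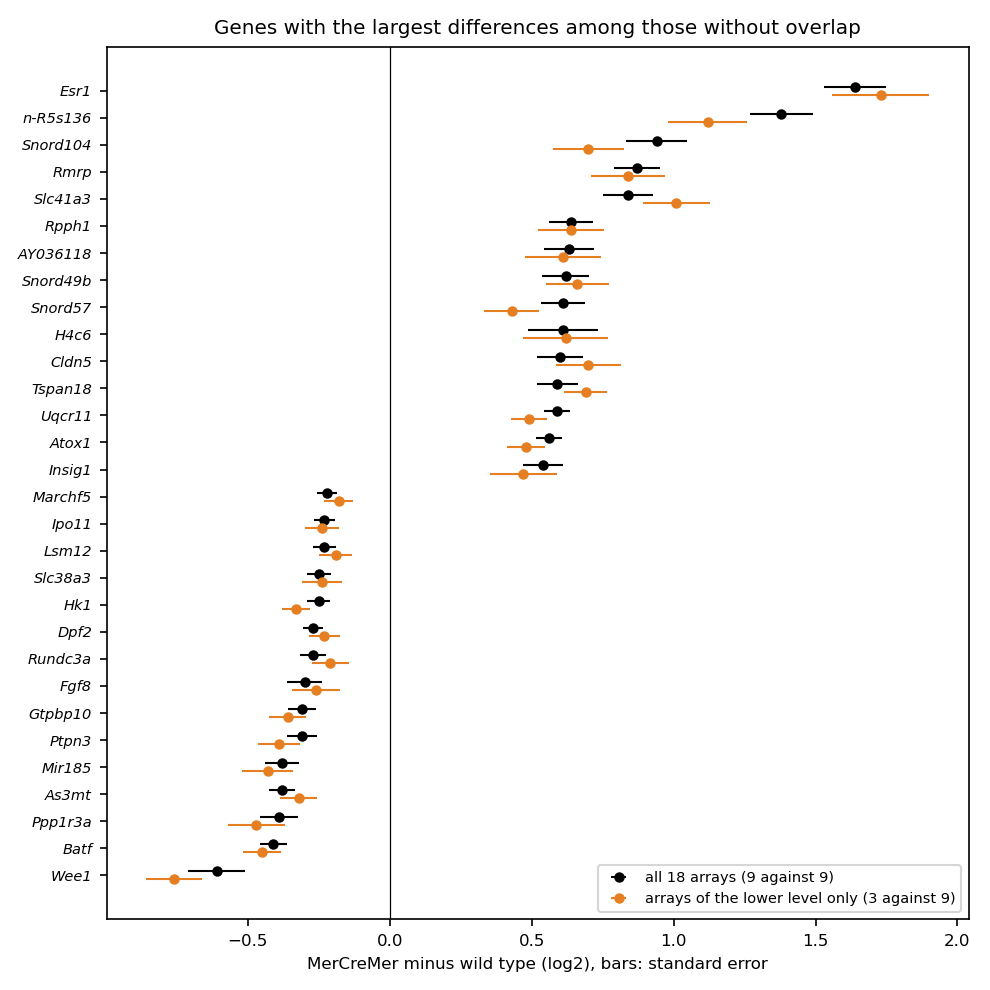
Change (MerCreMer minus wild type, log2) with its standard error for the 15 higher and 15 lower genes of largest change among called genes whose 9 and 9 arrays do not overlap, over all 18 arrays (black) and over the lower-level arrays alone (orange, 3 against 9). Changes in the lower-level arrays run from 1.73 for Esr1 to -0.76 for Wee1. Their kept sign follows from the choice of genes without overlap and is no separate evidence.

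Genes of the circadian clock were called lower more often than higher. In this clock Arntl and Clock form an activator that binds E-boxes and switches on the Per and Cry genes, which then repress it, while Nr1d1 represses Arntl, and the outputs Dbp, Tef and Hlf bind D-boxes. Of 19 clock genes tested 8 were lower, 2 higher and 9 not called, with a median of -0.13, and neither time of day nor light schedule is given in the sources used here. Arntl read 4.73, 5.42 and 6.58 in MerCreMer against 4.54, 4.79 and 5.39 in wild type, a change of 0.72 (SE 0.154, adjusted p = 0.00344). Clock was higher by 0.17 (adjusted p = 0.0296). Among the repressors Per2 was lower at -0.36, Per3 at -0.31, Cry1 at -0.37 and Cry2 at -0.19 (SE 0.0501, adjusted p = 0.0107). Of the outputs, Hlf read 6.43, 6.95 and 7.13 against 7.12, 7.28 and 7.41, a change of -0.40 (SE 0.0716, adjusted p = 0.00107), and Tef 7.74, 8.15 and 8.52 against 8.41, 8.54 and 8.64, a change of -0.37 (SE 0.0681, adjusted p = 0.00137). Ciart, a repressor of the Arntl and Clock pair, was lower at -0.58 (SE 0.189, adjusted p = 0.0336), and Usp2, a deubiquitinase with a daily rhythm, at -0.19 (adjusted p = 0.042). Dbp was at -0.13 (adjusted p = 0.515) and Per1 at -0.20 (adjusted p = 0.226).

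Single arrays weighed on the clock genes. MerCreMer 1 control replicate 1 had the highest Arntl (6.58) and the lowest Ciart (6.46) and Hlf (6.43) of the 18 arrays. Without it 4 clock genes were lower and 1 higher, with a median of -0.09, and Arntl was at 0.58 (adjusted p = 0.00334). Wild-type control replicate 3 stood apart from the other 5 wild-type control arrays. It read 7.75 for Nr1d1 against 9.61 to 9.93, 8.15 for Dbp against 9.05 to 9.17, 7.27 for Nfil3 against 6.03 to 6.46, and 7.10 for Cry1. Without it 8 were lower and 3 higher, with a median of -0.18. Nr1d1 was then higher by 0.34 (adjusted p = 0.000142), where over all 18 arrays it was at 0.54 and not called (SE 0.206, adjusted p = 0.0692), and Cry1 was at -0.27. Clock, Ciart, Per2, Cry1 and Usp2 lost their call on leaving out any of 6, 6, 4, 7 and 11 single arrays (highest adjusted p 0.0612, 0.079, 0.0689, 0.0717 and 0.0839). With the lower-level arrays alone 3 clock genes were lower and 1 higher, with a median of -0.24. The 3 MerCreMer arrays of that level lay at -0.46 to -0.18 for the median clock gene, the 6 of the higher level at -0.24 to 0.09, and wild type at -0.10 to 0.09. After 4 control injections in both genotypes the median was -0.03.

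**Figure D4:**
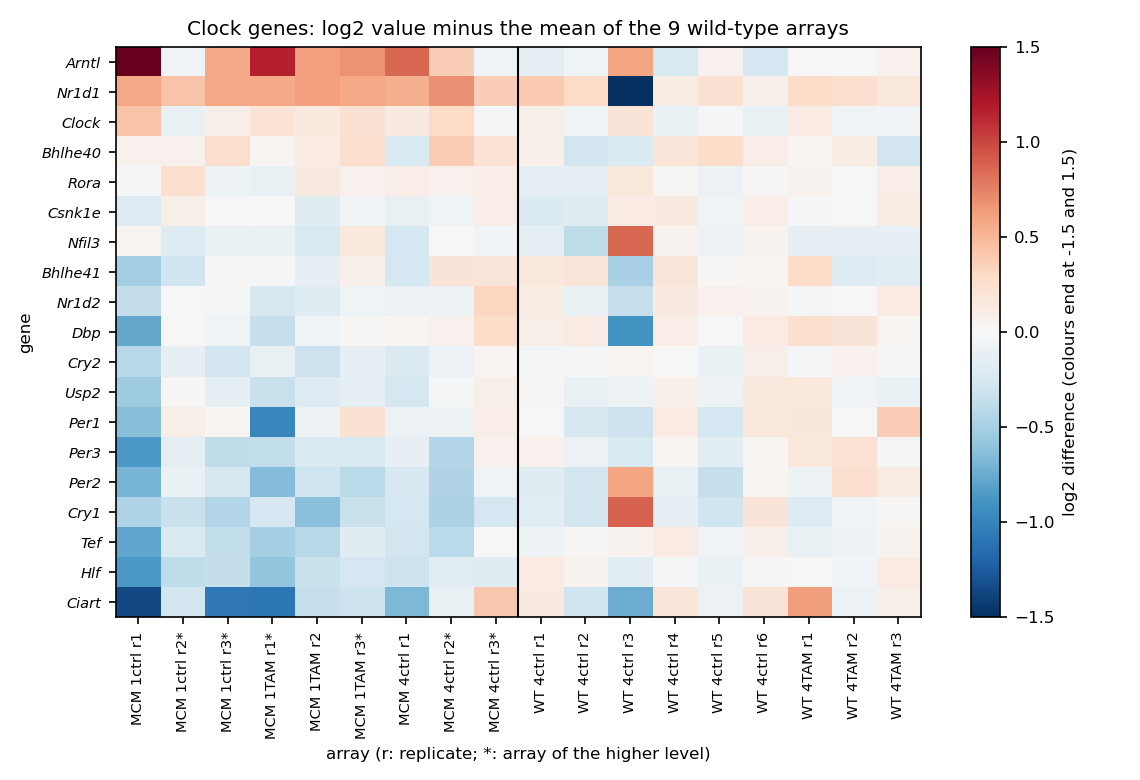
Log2 value of each of the 19 clock genes tested on each of the 18 arrays, minus the mean of the 9 wild-type arrays (red above, blue below), with genes ordered by their change. MerCreMer 1 control replicate 1 has the deepest reds and blues of the MerCreMer arrays, and wild-type control replicate 3 stands out from the other wild-type arrays at Nr1d1, Nfil3, Dbp and Cry1.

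The 250 bases before the start of each clock gene were searched on both strands for the E-box CACGTG, the D-box TTATGTAA and the core AGGTCA of the element bound by Nr1d1. Of 17 clock genes with a RefSeq window, 5 held the E-box (Bhlhe41, Ciart, Cry1, Per1 and Tef), 1 the D-box (Per3) and 4 the core AGGTCA (Clock, Nfil3, Nr1d2 and Per1). Some genes have several windows. Counted by window, 6 of 25 clock windows held the E-box (24%), 1 the D-box (4%) and 4 the core AGGTCA (16%), against 6.02%, 0.819% and 14% of 32851 windows over all genes. The windows of Ciart (chr3:95882229-95882478, minus strand) and Per3 (chr4:151044666-151044915, minus strand) on GRCm38.p6 are shown because both genes were lower and hold 3 E-boxes and 2 D-boxes, in capitals. A match is a description of the sequence and no binding was measured.
Ciart: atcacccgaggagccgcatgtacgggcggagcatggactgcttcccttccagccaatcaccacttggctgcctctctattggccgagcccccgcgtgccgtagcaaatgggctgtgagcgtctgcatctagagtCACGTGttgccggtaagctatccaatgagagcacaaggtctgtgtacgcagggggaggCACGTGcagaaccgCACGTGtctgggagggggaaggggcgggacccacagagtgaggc
Per3: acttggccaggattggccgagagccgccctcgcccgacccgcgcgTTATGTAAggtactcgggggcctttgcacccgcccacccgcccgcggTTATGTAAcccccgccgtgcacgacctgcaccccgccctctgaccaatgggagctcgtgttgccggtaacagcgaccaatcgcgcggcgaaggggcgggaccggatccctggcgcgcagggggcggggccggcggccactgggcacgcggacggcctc

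The contractile apparatus changed little. Of 32 sarcomere genes 0 were higher and 5 lower, with a median of -0.02. Myh7, the β-myosin heavy chain that is abundant in the foetal mouse ventricle, read 8.59, 9.25 and 9.84 in MerCreMer against 8.91, 9.93 and 10.33 in wild type, a change of -0.61 (SE 0.174, adjusted p = 0.0182). The wild-type control arrays lay at 9.80 to 10.33, and the wild-type tamoxifen arrays at 8.91 to 9.72, within the MerCreMer range. Its change was -0.68 in the lower-level arrays (adjusted p = 0.131). Myom1, which links myosin filaments at the M-band, was lower at -0.17 (SE 0.0329, adjusted p = 0.00173) without overlap, and Nexn, an actin-binding protein of the Z-disc, at -0.19 (SE 0.0414, adjusted p = 0.00366). Actc1, cardiac actin, was at -0.10 (adjusted p = 0.0161) and Nebl at -0.12, and Actc1 was at -0.04 (adjusted p = 0.272) after a second quantile normalisation.

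Genes of ion channels and calcium handling were called about as often as all genes tested (22.2% beside 22.6%). Of 36, 4 were higher and 4 lower (median 0.02), or 3 to 4 higher and 2 to 4 lower with 1 array left out. Cacna2d1, an auxiliary subunit of voltage-gated calcium channels, read 9.03 to 9.38 in MerCreMer and 9.32 to 9.51 in wild type, a change of -0.28 (SE 0.0459, adjusted p = 0.000515) and -0.31 in the lower-level arrays (adjusted p = 0.0189). Cacna1c, the pore of the L-type channel, was at 0.08 (SE 0.044, adjusted p = 0.192). Kcnk3, a background potassium channel, was higher by 0.23 (SE 0.0464, adjusted p = 0.00248) without overlap, and Kcnj8, a subunit of the ATP-sensitive potassium channel of vessels, by 0.23 (SE 0.0377, adjusted p = 0.000599). Kcnj12, an inward rectifier subunit, was at -0.22 and Fgf13, a sodium channel modulator, at -0.15. Pln, the brake on the calcium pump, was at -0.08 (adjusted p = 0.0473), a call that ended on leaving out any of 14 arrays (highest adjusted p 0.101).

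The natriuretic peptide genes, markers of wall stress, were not called. Nppa read 10.03 to 11.03 in MerCreMer and 9.14 to 11.17 in wild type, a change of 0.11 (SE 0.194, adjusted p = 0.727), and Nppb was at 0.49 (SE 0.239, adjusted p = 0.147). Of 25 cardiac stress and foetal genes 5 were higher (4 to 6 with 1 array left out) and 3 lower (1 to 3), with a median of 0.05. Ccn1 and Ccn2, secreted matricellular proteins, were higher by 0.40 (SE 0.0799, adjusted p = 0.00209) and 0.39 (SE 0.107, adjusted p = 0.0143), and Rcan1, an inhibitor of calcineurin, by 0.18 (SE 0.0498, adjusted p = 0.016). Of these 25, 0 were higher and 1 was lower in the lower-level arrays. The list of adrenergic and cAMP signalling held 3 higher genes and 1 lower of 16 (median 0.00), with the receptor gene Adra1b at 0.33 and the receptor kinase Grk5 at 0.42.

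Of 18 endothelial markers 6 were higher and 0 lower (median 0.06). The direction depended in part on scaling, since 5 were higher and 2 lower when values were quantile normalised again. Cldn5, the claudin of endothelial tight junctions, read 6.79, 7.03 and 7.71 in MerCreMer against 6.41, 6.57 and 6.76 in wild type, a change of 0.60 (SE 0.0806, adjusted p = 0.000108) and 0.70 in the lower-level arrays (adjusted p = 0.0146). Egfl7, a secreted vascular factor, was higher by 0.41 (SE 0.0497) and Esam, an endothelial adhesion molecule, by 0.39 (SE 0.0451), both without overlap. Of the 18, 4 were called in the lower-level arrays, all higher. The mean level of the endothelial list was 8.21 to 8.36 in MerCreMer and 8.10 to 8.35 in wild type. In bulk tissue, more cells of a type and more RNA per cell cannot be told apart.

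Of 39 extracellular matrix genes 10 were higher and 0 lower (median 0.09). Col4a1 and Col4a2, the chains of basement membrane collagen, were higher by 0.43 (SE 0.0528, adjusted p = 4.61e-05) and 0.30 (SE 0.0568, adjusted p = 0.00146), and Pcolce, an enhancer of procollagen processing, by 0.31 (SE 0.0584). These 3 genes were at 0.51, 0.38 and 0.45 in the lower-level arrays, all called. Col3a1, a fibrillar collagen, was at 0.40 (SE 0.112, adjusted p = 0.0171). Of 15 fibroblast markers 3 were higher and 0 lower (median 0.14). Thy1 lost its call without MerCreMer 1 tamoxifen replicate 1 (adjusted p = 0.0504), and Tcf21 on leaving out any of 3 arrays (highest adjusted p 0.059). Between 2 and 6 fibroblast markers were higher with 1 array left out. The mean level of the fibroblast list ran from 8.03 to 8.29 in MerCreMer and from 7.72 to 8.22 in wild type.

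Immune cell genes showed no shared direction. The share called was 26.1% for macrophage markers and 15.6% for interferon genes, beside 22.6% of all genes tested. Of 23 macrophage markers 3 were higher and 3 lower (median 0.01), with Lyz2, a lysozyme, at 0.28, C1qa, a complement subunit, at 0.21, and F13a1, a coagulation factor subunit of resident macrophages, at -0.38 (SE 0.095, adjusted p = 0.00924), beside Cd163 at -0.31 and Lyve1 at -0.28. The mean level of the list was 6.29 to 6.61 in MerCreMer and 6.29 to 6.62 in wild type. Of 32 interferon response genes 4 were higher and 1 lower (median 0.01), with Ifi27l2a at 0.48 (SE 0.0829) and Ifit3 at -0.47 (SE 0.109). Antigen presentation by MHC class I gave 3 higher and 2 lower of 14 (median 0.11), and Psmb8, a proteasome subunit, lost its call on leaving out any of 3 arrays. MHC class II gave 0 of 6, with H2-Ab1 at 7.27 to 8.62 in MerCreMer and 7.37 to 8.36 in wild type. Cytokines and acute phase genes gave 1 higher and 3 lower of 21, and complement 1 higher and 2 lower of 12. The lower complement genes, Cfb and Cfp, lost their calls on leaving out any of 11 and any of 8 arrays (highest adjusted p 0.0935 and 0.0893). With 1 array left out, the higher and lower counts ran from 2 to 4 and 1 to 4 for macrophage markers, 2 to 5 and 1 to 4 for interferon genes, 1 to 4 and 1 to 3 for MHC class I, and 1 to 3 and 1 to 3 for cytokines.

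Markers of cells that could be carried over with the tissue were mostly dim. None of 8 B-cell markers, 1 of 8 T-cell markers, 1 of 11 neutrophil markers, 1 of 7 mast cell markers, 5 of 15 skeletal muscle markers, 5 of 11 adipocyte markers, 5 of 12 mesothelial markers and 3 of 10 nerve markers reached the level of testing. Of 8 tested atrial markers 0 were called, with mean levels of 7.04 to 8.47 in MerCreMer and 6.93 to 8.2 in wild type. The atrial myosin light chain Myl7 had a change of 1.41 (SE 0.748, adjusted p = 0.186) and Myl4 of 1.05 (SE 0.581, adjusted p = 0.203), both singled out after their values were seen. Of 13 smooth muscle and pericyte markers 2 were higher and 0 lower. Alas2, an enzyme of haem synthesis in red cell precursors, was at 0.43 (adjusted p = 0.0312), and lost its call on leaving out any of 8 arrays (highest adjusted p 0.0677).

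Most lists of stress and turnover held called members in both directions. The share called was 25% for antioxidants, 26.7% for chaperones and 21.4% for the unfolded protein response, beside 22.6% of all genes tested. Of 36 antioxidant genes 6 were higher and 3 lower (median 0.09), with Gpx1, a glutathione peroxidase, at 0.36 (SE 0.0433, adjusted p = 3.97e-05) without overlap, Mgst3, a microsomal glutathione transferase, at 0.54 (SE 0.0832), and Hmox1, the inducible haem oxygenase, at 0.18 (SE 0.104, adjusted p = 0.222). Of 30 cytosolic chaperones 5 were higher and 3 lower (median 0.00), with the small heat shock proteins Hspb2 and Hspb1 at 0.34 (SE 0.0511) and 0.36 (SE 0.0799). Of 29 p53 and DNA damage genes 5 were higher and 4 lower (median 0.03), with Zmat3 at 0.26 (SE 0.0481) and Gadd45b at 0.36 (SE 0.083). Of 28 genes of the unfolded protein response 3 were higher and 3 lower, and of 28 muscle ubiquitin ligase and autophagy genes 6 were higher and 3 lower, with Map1lc3a, an autophagosome protein, at 0.41 (SE 0.0592, adjusted p = 0.000192). Of 21 immediate early genes 5 were higher and 1 lower, with Jun at 0.44 (SE 0.0845), and 0 were called in the lower-level arrays. Of 14 glucocorticoid targets 3 were higher and 1 lower, the latter Zbtb16 at -0.62 (SE 0.17, adjusted p = 0.0152) and -0.49 without wild-type control replicate 3. In the cell cycle list 2 of 12 were higher and 4 lower. Of 19 drug metabolism genes 0 were higher and 1 lower, the monooxygenase Fmo2 at -0.43 (adjusted p = 0.0355). Its call ended on leaving out any of 7 arrays (highest adjusted p 0.0793), and wild-type control replicate 3 read 8.86 against 7.19 to 7.79 on the other 5. With 1 array left out, the higher and lower counts ran from 5 to 11 and 1 to 3 for antioxidants, 3 to 6 and 0 to 3 for chaperones, 3 to 4 and 1 to 3 for the unfolded protein response, and 5 to 8 and 1 to 4 for ubiquitin ligases and autophagy. Immediate early genes ran from 3 to 7 higher and cell cycle genes from 1 to 3 higher.

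**Figure D5:**
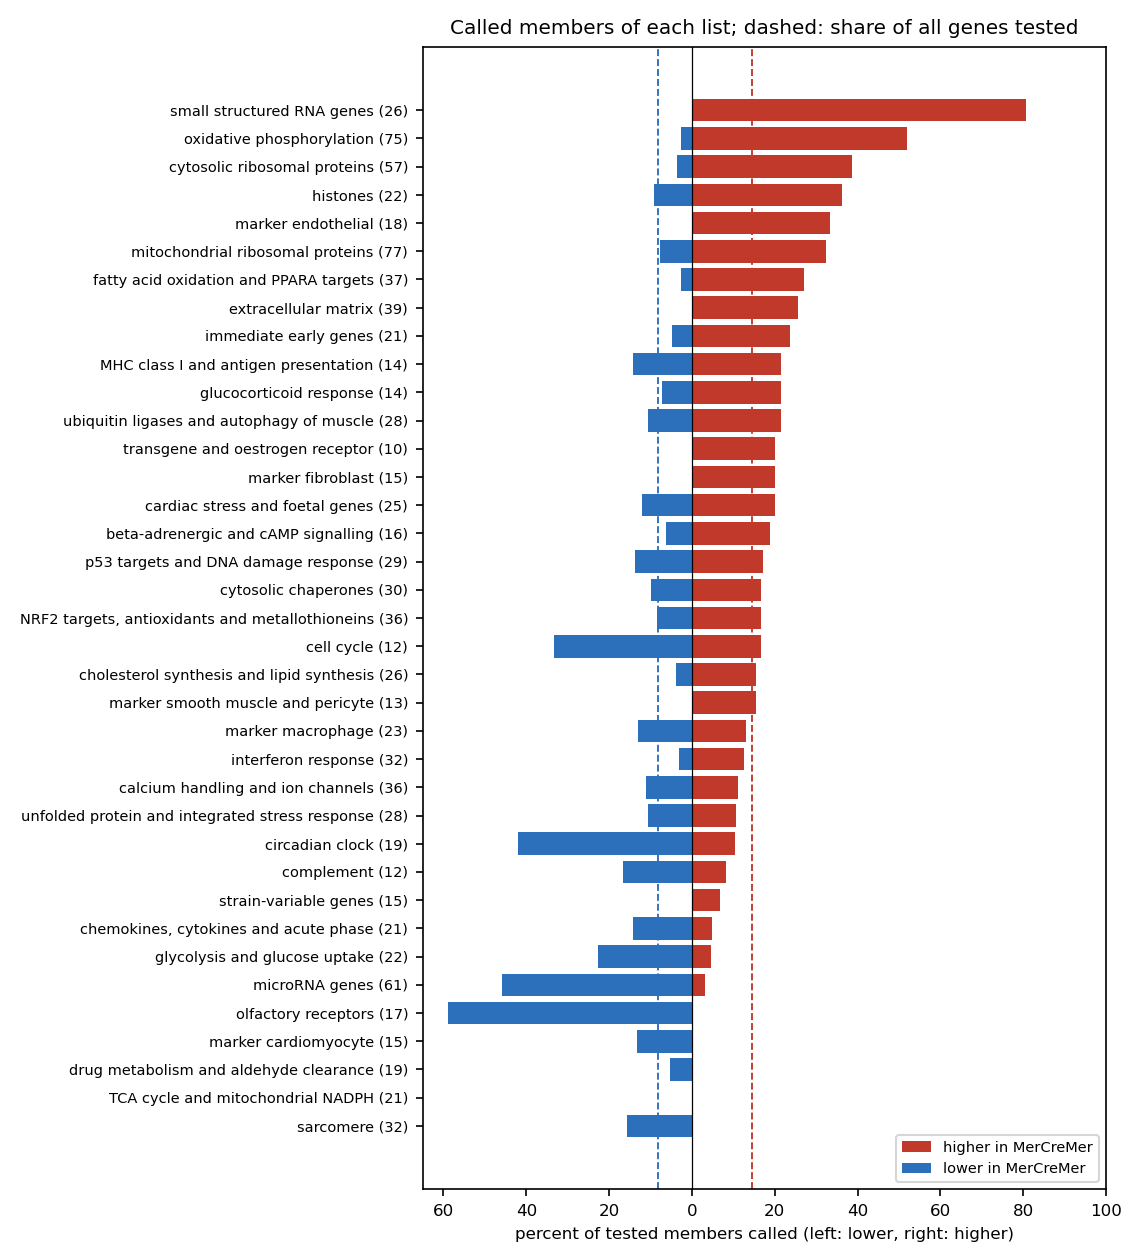
Percent of the tested members of each list (number in brackets) called higher (right, red) or lower (left, blue) in MerCreMer, for lists with 10 or more tested members, with dashed lines at the shares of all genes tested, 14.4% higher and 8.17% lower. Small structured RNA genes (21 of 26) and respiratory chain genes (39 of 75) reach farthest to the right, and olfactory receptors (10 of 17), microRNA genes (28 of 61) and clock genes (8 of 19) farthest to the left.

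The pooled comparison mixes injection schedules, since all wild-type mice had 4 injection days and 6 of the 9 MerCreMer mice had 1. The groups matched in both agent and days, 3 MerCreMer and 6 wild-type samples after 4 control injections, were therefore compared within the same 18-array fit. They share arrays with the pooled comparison and are no independent evidence for it. Of 11306 genes 690 were called (6.1%), 489 higher (4.33%) and 201 lower (1.78%). Esr1 read 7.39 to 7.68 against 5.47 to 6.08, a change of 1.80 (SE 0.135, adjusted p = 3.56e-06). n-R5s136 was higher by 1.54 (SE 0.14), and Snord15a by 1.43 (adjusted p = 0.00253), with values of 6.78, 5.81 and 6.02 in MerCreMer and 4.58 to 5.42 in wild type. Snord33 was higher by 1.28 and Rny1 by 1.12. On the lower side Gm4971, a predicted gene, was at -1.06, Rab6b, a vesicle transport GTPase, at -1.02, Olfr1148 at -0.90, Myh7 at -0.84 (SE 0.226, adjusted p = 0.0389) and Lgi1, a secreted neuronal protein, at -0.80. Gm4971, Olfr1148, Rab6b and Lgi1 had MerCreMer values that reached below 5. Rab6b did not follow genotype over all groups. It read 5.31 to 6.24 in MerCreMer after 1 control injection, beside 4.88 to 6.49 in wild-type controls. Wild-type tamoxifen arrays read 4.91 to 5.29 for Rab6b. In wild-type controls Lgi1 read 7.11, 6.58 and 6.55 in males and 5.61, 5.41 and 5.07 in females. Of the matched samples, 1 of 3 MerCreMer and 3 of 6 wild-type were male, and sex was in the fit. The median changes of the small RNA, respiratory chain and microRNA lists were 0.58, 0.12 and -0.22.

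The number called after 4 control injections rested on single arrays. It was 308, 148 and 400 without MerCreMer 4 control replicates 1, 2 and 3, and 449, 313 and 330 without wild-type control replicates 4, 5 and 6, and it was 1072 without wild-type control replicate 3. With the array level as a covariate it was 73 (60 higher, 13 lower). Within MerCreMer, 4 against 1 control injections gave 0 calls by limma, with 775 genes at an unadjusted p under 0.05 and a lowest adjusted p of 0.589. No other tool was run. The tamoxifen term of the pooled model also gave 0, with 803 genes at an unadjusted p under 0.05 and a lowest adjusted p of 0.149.

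Whether tamoxifen acted differently in the genotypes was asked with an interaction, (MerCreMer 1 tamoxifen minus 1 control) minus (wild-type 4 tamoxifen minus 4 control). Because the number of days differs with genotype here, the 2 cannot be told apart. Of 11306 genes 2 were called (0.0177%), 1 in each direction (0.00884%), with 613 at an unadjusted p under 0.05. Cyfip2, a regulator of actin nucleation, read 9.38, 9.46 and 9.25 after a control injection and 8.70, 8.47 and 8.70 after tamoxifen in MerCreMer, whereas in wild type it read 8.67 to 8.97 after control injections and 9.61, 9.52 and 9.50 after tamoxifen. The interaction was -1.52 (SE 0.184, adjusted p = 0.00357). MerCreMer arrays after 4 control injections read 9.43, 9.48 and 8.72, so 1 of these 3 lay at the lower values too. Ptprn2, a phosphatase-like protein of secretory granules, read 5.97, 5.85 and 5.92 after tamoxifen in MerCreMer against 4.65, 4.93 and 4.63 after control injection, and 4.82 to 4.97 against 4.76 to 5.47 in wild type. Its interaction was 1.23 (SE 0.179, adjusted p = 0.0187), from levels near 5. The Ptprn2 call ended without MerCreMer 1 control replicate 1 or 3, any MerCreMer 1 tamoxifen replicate, or wild-type tamoxifen replicate 1 or 3 (adjusted p up to 0.1), while Cyfip2 was called in each of the 18 recalculations that left out 1 array (interaction -1.58 to -1.45). In both genes the pooled genotype change was small, 0.03 and 0.18, and not called.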

How the data were processed

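Left ventricle RNA was measured on 1-colour expression arrays, 21 in all, of which 18 entered the comparisons. The deposited values are log2 expression values per probe set, which the authors computed with RMA according to the submitters' processing notes. No version, genome build or date of scanning is given in the sources used here. Of 34760 probe sets, 21640 had 1 gene symbol, 1321 several and 11799 none, and those with 1 symbol gave 19937 genes, each read by its probe set of highest mean over the 18 arrays. Genes reaching a log2 value of 5 on at least 3 of the 18 arrays were kept (11306). The number of arrays limits the precision. limma 3.58.1 (lmFit and eBayes, R 4.3.3) fitted genotype, tamoxifen and sex, with Benjamini-Hochberg adjustment over all genes tested. A model of the 5 groups and sex gave the matched comparison and the interaction. All adjusted p-values are from limma. The procedure was tested on simulated data.

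Named genes were the 15 higher and 15 lower called genes of largest change whose arrays did not overlap, for each list up to 3 called genes by smallest adjusted p (otherwise 1), a panel (Myh6, Esr1, A1cf, Nnt, Glo1, Cacna1c, Hmox1, Nppa, Nppb, Myh7, Cdkn1a), and 5 per direction for each other test. Others were chosen after their values were seen. The comparison, its members and the gene lists were chosen with earlier results of these data known. Alternatives covered the filter, normalisation, probe choice, prior, array weights, covariates, subsets of arrays and each array left out. Sequences are from RefSeq (GRCm38.p6).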

Additional observations from a re-analysis of the deposited data

Results flagged for a closer look

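Among 186 named genes, 23 had a wild-type 4 control array that stood apart from the other 5, by a gap beyond Dixon's critical value for 6 samples. Chance alone marks about 1 in 20 such groups. Wild-type control replicate 3 held 13 of the 23. In log2 RMA values it read lower than the others in Nr1d1 (7.75 against 9.61 to 9.93), Dbp (8.15 against 9.05 to 9.17), Bhlhe41 (7.76 against 8.26 to 8.43), Slc41a3 (7.75 against 8.31 to 8.48) and Olfr1148 (4.6 against 5.01 to 5.12). It read higher in Nfil3 (7.27 against 6.03 to 6.46), Zbtb16 (9.44 against 8.06 to 8.54), Fmo2 (8.86 against 7.19 to 7.79), Ppp1r3a (9.62 against 9.03 to 9.23), Snord15a (5.42 against 4.58 to 4.76), Jun (7.63 against 7.12 to 7.3), Papss2 (6.47 against 6.09 to 6.13) and Map1lc3b (9.72 against 9.43 to 9.52).

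Replicate 1 stood apart in Rny3 (9.51 against 10.52 to 11.07), Ifit3 (4.77 against 5.36 to 5.69) and Tspan18 (5.68 against 5.85 to 5.92). Replicate 2 did so in Angptl4 (6.3 against 4.87 to 5.26) and Nexn (10.08 against 10.3 to 10.4). Replicate 4 did so in H4c4 (7.93 against 7.23 to 7.42) and Stard4 (5.7 against 5.86 to 5.96). Replicate 6 did so in H2-Ab1 (7.47 against 8.09 to 8.21), H2-Eb1 (7.41 against 7.98 to 8.19) and Thy1 (6.44 against 6.1 to 6.2).

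The interaction was called by limma in Cyfip2, at -1.52 (adjusted p = 0.00357), and in Ptprn2, at 1.23 (adjusted p = 0.0187). Genotype and number of tamoxifen days cannot be told apart in it. The Ptprn2 call also ended with all 21 arrays (adjusted p = 0.149) and on leaving out some single arrays. Neither gene was called with the replicate number as a block.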

How the results depend on the processing

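For the pooled comparison, 2551 genes were called. The count was 1320 with all 21 arrays, 801 with control-injected arrays only, 886 with injection days as a covariate, 608 with only MerCreMer 4 control arrays, 2 in male arrays (3 against 4), 512 with the array level as a covariate and 328 in lower-level arrays alone. The other alternatives gave 1766 to 3239, and leaving out 1 array gave 1953 to 2832. After 4 control injections 690 genes were called, against 417 with no filter, 76 with all 21 arrays, 280 with only the 9 arrays compared and 73 with the array level. Leaving out 1 array gave 148 to 1072. The interaction called 2 genes, 4 with probe sets averaged, 1 with all 21 arrays and 1 to 4 with 1 array left out. With the replicate number as a block the 3 counts were 343, 1 and 0. The labels do not say whether the numbers pair the samples. Around group means, 14 of 30 same-numbered pairs correlated over 0.1 (median 0.0971, against -0.0712 for differently numbered pairs). Around group and sex means 4 of 30 did (median -0.0634 against 0.0296). Of 151 named genes called, 135 to 148 were kept when 1 array was left out and 127 in every such case. Fewer were kept under other alternatives: 70 with the array level as a covariate and 59 in lower-level arrays alone. Injection days as a covariate kept 77, only MerCreMer 4 control arrays 61, the replicate block 54 and male arrays 2. Some of these genes were chosen for not overlapping, which favours their being kept. The array-level alternatives were chosen after seeing the data. The causes of these shifts were not tested, nor was the part of the smaller number of arrays in the subsets. Genes near log2 5 have little signal over background.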
